A study of Rattus norvegicus with 21 samples.

Results

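Connective tissue and mesenchymal genes are described here on 21 arrays of rat spinal cord. The set holds 8 genes: the type I collagen chains Col1a1 and Col1a2, decorin (Dcn), matrix Gla protein (Mgp), tissue inhibitor of metalloproteinases 1 (Timp1), UDP-glucose dehydrogenase (Ugdh), vimentin (Vim) and S100a6. All array probes that the platform annotation assigns to these symbols were taken, which gave 9 probes among 4911 with a value. Col1a1 has 2 probes, 32D04 (probe 1) and 33G03 (probe 2), and each other gene has 1. The members were chosen by their measured ratios on these same arrays. In NS398 cultures Vim, Dcn, Mgp and S100a6 were the 6th, 7th, 8th and 10th highest of 4486 probes. In acetaminophen cultures Col1a2, Mgp and Timp1 were the 6th, 11th and 16th lowest of 4734, and in CKIN cultures Col1a2 was the 35th lowest of 3736. The comparison that served for the choice is not stated, and it is taken here to be these treatments. Values from those treatments are therefore given as a description, with standard errors and without p-values. Acetaminophen and CKIN are compared with PBS-treated cultures, which also enter the injury and MP comparisons. P-values there are not free of the choice, and those for indomethacin may not be either.

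These genes encode parts of the extracellular matrix and of the cells that make it. Type I collagen is a heterotrimer of alpha 1 and alpha 2 chains and forms tensile fibrils. Decorin is a small leucine-rich proteoglycan that coats such fibrils, and matrix Gla protein is a vitamin K-dependent inhibitor of calcification. Timp1 is a secreted inhibitor of matrix metalloproteinases that inflammatory signals induce in many cells. Ugdh makes UDP-glucuronate, a precursor of hyaluronan and of sulphated glycosaminoglycans. Vimentin is the intermediate filament of mesenchymal cells and also of immature and reactive astrocytes. S100a6, or calcyclin, is a small calcium-binding protein abundant in fibroblasts. In the spinal cord, fibrillar collagen and decorin come mostly from the meninges and from fibroblasts around vessels, and these cells take part in scar formation after injury.

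Each array carried sample RNA beside a reference RNA, with 3 arrays in each of 7 groups. CKIN, MP and acetaminophen (Acet) cultures, kept for 4 hr, were set against PBS-treated culture RNA. Indomethacin (Indo) cultures were set against ethanol-treated (ETOH) cultures and NS398 cultures against DMSO-treated cultures, also at 4 hr. The Injured 4 hr group was unpooled PBS-treated spinal cord culture and the Uninjured group was freshly dissected rat cord, both against the pooled PBS-treated cultures. Indomethacin inhibits both cyclooxygenases, NS398 prefers cyclooxygenase 2, and acetaminophen is an analgesic. CKIN and MP are spelled no further in the labels and are read here, from knowledge of the field, as cytokine inhibitors and methylprednisolone. The sources used here state no strain, age, dose or number of animals. Whether replicates came from separate animals or cultures is not stated either. A p-value therefore covers only the spread among the samples, which may be technical. That spread is estimated over all 7 groups together, including those taken as used for the choice of members. A culture of cut cord is a model of injury without blood supply.

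Arrays gave values for 3092 to 4916 probes. Every CKIN and Indo array, 2 MP arrays, 1 NS398 array and 1 Acet array had more than 1100 missing spots and are called sparse here; the other 11 arrays are called full. Of the members' values, 10 of 90 were missing on sparse arrays and 1 of 99 on full arrays. Medians of the deposited log2 ratios ran from -4.13 to 0.69, so each array was centred on its median, and every value below is a centred log2 ratio unless stated. A change is thus relative to the median probe. Without centring, the median of all probes shifted by 1.47 for Injured 4 hr minus Uninjured, by 1.54 to 1.67 for the treatments minus Injured 4 hr, by -0.03 for Indo and by -0.98 for NS398. After centring it was still -0.38 for CKIN, -0.27 for MP and -0.21 for Acet minus Injured 4 hr. The titles were read as sample over reference, which is likely but not stated. Array ratios give no absolute level, so they could not check the tissue. The median of the neuronal markers lay between 1.50 and 1.65 in Injured 4 hr and between 3.03 and 3.40 in Uninjured. On the Injured 4 hr arrays both RNAs were PBS-treated culture, so a value above the array median there does not show expression of neuronal genes. In bulk RNA, fewer cells of a type and less RNA per cell cannot be told apart.

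Promoter sequence from RefSeq (build GRCr8) matched 5 of the 8 genes: Col1a2, Timp1, Ugdh, Vim and S100a6. The 250 bases before the start in the table were searched on both strands for the CCAAT box as spelled, for the TATA box with the letters TATAAA and for a GC box with the letters GGGCGG. The AP-1 site was searched with the letters TGANTCA and a variant of it with the letters TGAGTAA, and no matches overlapped. The windows below are shown because Col1a2 and Vim kept close over the arrays (r = 0.92) while Timp1 had the opposite sign to both in the injury comparison of centred ratios. That change of Timp1 had a limma adjusted p of 0.136. Over the arrays Timp1 also varied with Col1a2 (r = 0.83) and with Vim (r = 0.83), so the windows do not contrast genes that part over the arrays. Capitals mark motif matches. A match on the opposite strand appears as its reverse complement. The Col1a2 window lies at chr4:33518307-33518422 on the plus strand, the Timp1 window at chrX:3771194-3771294 on the minus strand and the Vim window at chr17:81577051-81577214 on the plus strand, all upstream of the tabulated start. That start lies inside the annotated span of Timp1.
Col1a2: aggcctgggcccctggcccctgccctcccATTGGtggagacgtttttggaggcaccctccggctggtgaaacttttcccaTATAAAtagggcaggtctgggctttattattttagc
Timp1: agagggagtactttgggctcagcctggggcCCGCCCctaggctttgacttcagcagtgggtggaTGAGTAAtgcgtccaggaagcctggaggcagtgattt
Vim: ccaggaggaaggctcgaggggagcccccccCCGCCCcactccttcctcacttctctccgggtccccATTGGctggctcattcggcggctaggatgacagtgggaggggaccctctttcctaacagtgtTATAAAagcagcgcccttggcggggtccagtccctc
Both Col1a2 and Vim held a CCAAT box on the minus strand upstream of a TATA box, at -221 and -170 in Col1a2 and at -144 and -82 in Vim. Timp1 held the AP-1 variant at -108 and a GC box at -142. Among 33469 rat promoters of this length, 34.0% held the CCAAT box, 12.9% the TATA box, 30.5% the GC box, 6.34% the AP-1 site and 2.38% its variant. A GC box was present in 4 of the 5 (all but Col1a2), and the AP-1 site in 0 of the 5. These matches are letters in a window and say nothing of binding.

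Setting Injured 4 hr against Uninjured addresses the difference between cultured and fresh cord. Relative to the median probe, 7 of the 9 probes had changes below 0 in the cultures, while Mgp and Timp1 lay above 0, and as deposited all 9 lay above 0. By limma 0 of 9 passed an adjusted p of 0.05 (Benjamini-Hochberg adjustment). The background in that comparison was 14.3% of 4822 probes called. At an unadjusted p under 0.05 the count was 3 of 9, against 29.0% of all probes. The arrays of the 2 groups did not overlap for 7 of the 9 probes, where 54.0% of all probes were apart in this way. The members' median change was -0.79, against -0.04 over all probes tested.

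The protease inhibitor Timp1 had the highest change of the 9 probes. It stood at 0.60, 0.58 and -0.01 on the Injured 4 hr arrays, against -0.77 and -0.80 on the Uninjured arrays that measured it. All 3 culture arrays were above both fresh cord arrays. The change of 1.17 ± 0.52 (SE, n = 3 and 2; limma adjusted p = 0.136) was the 76th highest of 4822. It stayed above 0 under each scaling of the arrays, at 0.98 to 2.50. The top value is as deposited, where the median of all probes shifted by 1.47. Timp1 passed in ratios corrected for brightness and plate (1.97, limma adjusted p = 0.0118), as deposited and with the array set as a term. Those fits called 346, 2430 and 988 of all 4822 probes. The brightness curve was fitted on the Injured 4 hr mean itself, which put Timp1 at -0.01 there, so that pass is no separate support. The pass with the array set as a term is none either. All arrays of both groups were full, so the term could not adjust this difference, and the median over all probes stayed at -0.04. The collagen chains lay on the other side of 0 in centred ratios and on the same side as deposited. Col1a2 was 1.10, 1.37 and 0.90 on the Injured 4 hr arrays, against 2.07, 2.16 and 1.90 on the Uninjured arrays, a change of -0.92 ± 0.48 (limma adjusted p = 0.216). Col1a1 probe 1 was 0.16, 0.40 and 0.03 in Injured 4 hr, against 0.88, 0.55 and 1.55 in Uninjured (-0.79 ± 0.33, limma adjusted p = 0.117). Probe 2 changed by -0.99 ± 0.45 (limma adjusted p = 0.15). All these collagen values lay lower in each culture than in each fresh cord.

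Vimentin had the highest centred ratio of the members on each fresh cord array. Vim was 1.88, 1.67 and 1.81 in Injured 4 hr, against 2.71, 3.04 and 3.03 in Uninjured, a change of -1.14 ± 0.61 (SE, n = 3 each; limma adjusted p = 0.228). The calcium-binding S100a6 was 1.33, 1.19 and 0.78, against 1.99, 2.38 and 2.28 in Uninjured (-1.12 ± 0.61, limma adjusted p = 0.23). The groups were again apart for both genes. These standard errors rest on the spread over all groups, not only the groups compared. For Vim the SD was 0.11 in Injured 4 hr and 0.19 in Uninjured, against 0.21 (CKIN) to 1.83 (MP) in the treated groups. Decorin changed by -0.68 ± 0.50 (limma adjusted p = 0.391), Ugdh by -0.60 ± 0.37 (limma adjusted p = 0.303) and Mgp by 0.08 ± 0.52 (limma adjusted p = 0.929). The direction rests on the scaling: as deposited, 9 of 9 probes lay higher in Injured 4 hr, and among the 5 scalings tried Col1a2, Dcn and Ugdh lay above 0 under 4 (all but centring alone), Vim under 3 and S100a6 under 2. A fit of only these 2 groups called 7 of the 9, all but Mgp and Ugdh, and called 1824 of all 4822 probes.

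**Figure D1:**
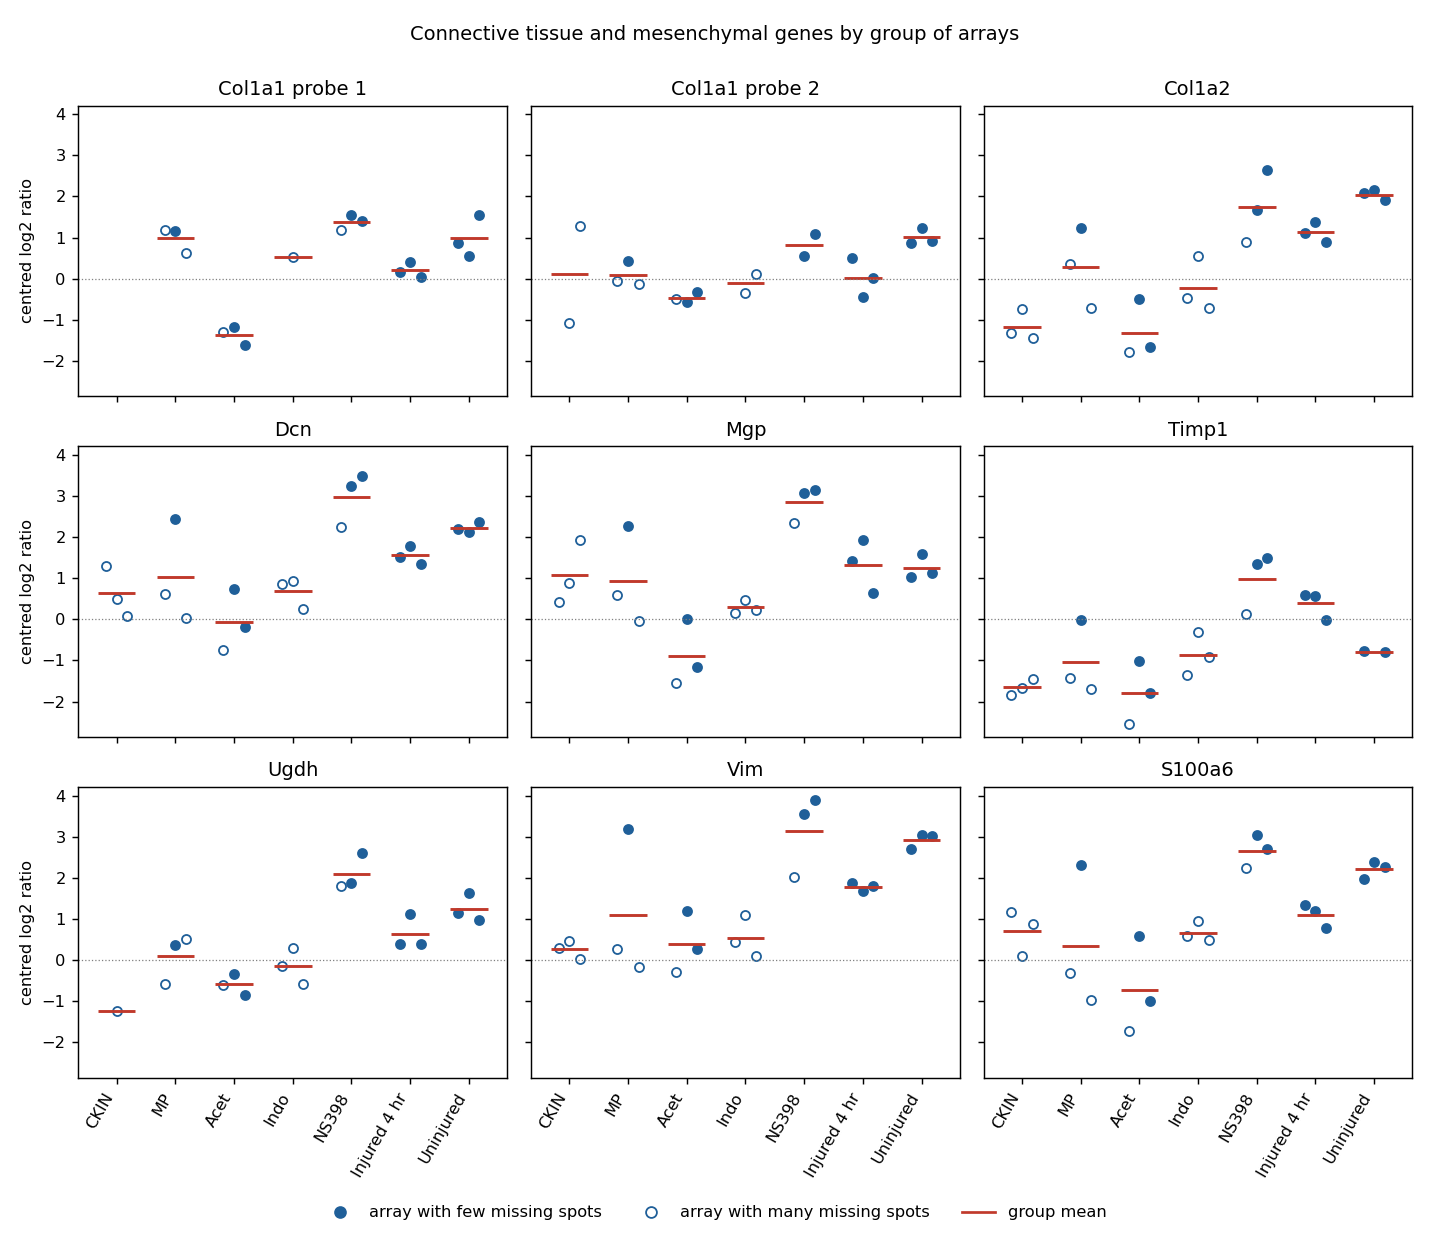
Centred log2 ratio of each of the 9 probes on every array, by group, with filled points for full arrays, open points for sparse arrays and a line at the group mean. NS398 holds the highest centred mean for 7 of the 9 probes, with arrays apart from the group next in mean only for Mgp and Ugdh. Vim in MP is 3.20 on the full array and 0.26 and -0.16 on the sparse arrays. Timp1 lies higher on all Injured 4 hr arrays than on the measured Uninjured arrays.

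The MP comparison sets treated cultures against PBS alone. Its Injured 4 hr arrays are also the comparator for acetaminophen and CKIN, so its p-values are not free of the choice of members. The comparison gave 0 of 9 probes past the threshold in limma, with a background of 2.05% of 4391 probes. The count at an unadjusted p under 0.05 was 2 of 9, against 17.5% of all. Timp1 was -1.44, -0.01 and -1.69 on the MP arrays, against 0.60, 0.58 and -0.01 on the Injured 4 hr arrays (-1.44 ± 0.46, SE, n = 3 each; limma adjusted p = 0.0973). Only MP replicate 2 reached the range of the PBS cultures, and as deposited the change turned to 0.55. Col1a1 probe 1 was 1.19, 1.16 and 0.63, against 0.16, 0.40 and 0.03 in Injured 4 hr (0.80 ± 0.34, limma adjusted p = 0.225). It lay higher on each MP array, and its change stayed above 0 under each scaling, at 0.70 to 2.78. Probe 2 of the same gene changed by 0.06 ± 0.45 (limma adjusted p = 0.962).

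The MP arrays were spread widely for several members. Vim was 0.26, 3.20 and -0.16 on the MP arrays, against 1.67 to 1.88 on the Injured 4 hr arrays. S100a6 was -0.32, 2.31 and -0.98, and Dcn 0.62, 2.45 and 0.02, against 0.78 to 1.33 and 1.36 to 1.80 in Injured 4 hr. In each case the high value was MP replicate 2, the full array of the group, and the low values came from the sparse arrays. Without it, Timp1 (-1.95), Vim (-1.74) and S100a6 (-1.75) passed the threshold, with limma adjusted p of 0.00788 for Timp1, 0.0162 for Vim and 0.0182 for S100a6. That fit called 16.4% of 3638 probes. On MP replicate 2 the median of the myelin markers was 2.15, against 0.02 and 0.06 on replicates 1 and 3. The astrocyte median was 0.79, against -0.14 and -0.24, and the neuronal median 1.88, against 0.88 and 1.35. The part of these cell types and of the missing spots in this split was not tested.

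Indomethacin was tested against 0, that is against the ethanol pool, whose own spread is outside the test. Among 8 probes tested, 0 passed in limma, with a background of 13.3% of 3803 probes and 1 of 8 at an unadjusted p under 0.05, against 25.8% of all. Col1a1 probe 1 had a value on 1 Indo array and was not tested. Timp1 was -1.36, -0.32 and -0.91 (-0.86 ± 0.33, SE, n = 3; limma adjusted p = 0.0854), below the array median each time. Dcn was 0.87, 0.94 and 0.24 (0.68 ± 0.35, limma adjusted p = 0.227), S100a6 0.59, 0.95 and 0.48 (0.67 ± 0.42, limma adjusted p = 0.334) and Vim 0.43, 1.09 and 0.10 (0.54 ± 0.43, limma adjusted p = 0.462). These 3, and Mgp with a mean of 0.29, lay above the array median on every Indo array. The means of the rest were -0.11 for Col1a1 probe 2, -0.15 for Ugdh and -0.22 for Col1a2. All Indo arrays were sparse. The array set as a term put Dcn, Mgp, Vim and S100a6 past the threshold, at 0.94 to 1.57, in a fit that called 954 of all 3803 probes (621 higher).

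A zero in such a test is not the level of like RNA. On the Injured 4 hr arrays, where PBS-treated culture RNA met PBS-treated culture RNA, Vim averaged 1.79 ± 0.11, Dcn 1.56 ± 0.22, Mgp 1.34 ± 0.65, Col1a2 1.13 ± 0.23 and S100a6 1.10 ± 0.29 (SD, n = 3 each). As deposited, the same arrays gave -0.41 for Vim, -0.65 for Dcn, -0.87 for Mgp, -1.08 for Col1a2 and -1.10 for S100a6. Centring thus put the members above 0 where both channels held the same kind of RNA, and the deposited scale put them below it.

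CKIN cultures had the lowest vimentin mean of the 7 groups in centred ratios, at 0.26, with Acet overlapping at 0.39. Acet was the lower of the 2 in mean percentile (61.0 against 64.0) and in ratios corrected for brightness and plate (-0.79 against -0.31). Col1a2 and Timp1 lay below the PBS cultures. Col1a2 was -1.34, -0.73 and -1.44 on the CKIN arrays, against 1.10, 1.37 and 0.90 on the Injured 4 hr arrays, a change of -2.29 ± 0.48 (SE, n = 3 each). Timp1 was -1.84, -1.67 and -1.45, against 0.60, 0.58 and -0.01 in Injured 4 hr (-2.04 ± 0.46). Neither gene's groups overlapped, and both changes stayed below 0 under each scaling, at -2.81 to -0.37 for Col1a2 and -2.34 to -0.12 for Timp1. Vim was 0.29, 0.45 and 0.04, against 1.88, 1.67 and 1.81 in Injured 4 hr (-1.53 ± 0.60). Dcn changed by -0.92 ± 0.50, S100a6 by -0.38 ± 0.60, Mgp by -0.26 ± 0.51 and Col1a1 probe 2 by 0.08 ± 0.50, and as deposited Vim, Dcn, S100a6 and Mgp turned above 0. Ugdh was measured on 1 CKIN array, at -1.24, and Col1a1 probe 1 on 0, so neither was tested. Of the 7 tested, 2 (Col1a2 and Timp1) fell past the threshold, where 18.5% of 3736 probes did. All CKIN arrays were sparse and all Injured 4 hr arrays full. With the array set as a term, which rests on MP, NS398 and Acet, Col1a2 stood at -1.16 and Timp1 at -0.72, and neither passed. Corrected for brightness and plate they stood at -1.35 and -1.10, and neither passed there.

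Acetaminophen cultures had the lowest mean of the groups for 7 of the 9 probes, all but Vim and Ugdh, in centred ratios. Only for Mgp and Col1a1 probe 1, which had no CKIN value, did the Acet arrays stand apart from the group next in mean. CKIN was next for Col1a2 (-1.17 against -1.31 in Acet) and Timp1 (-1.65 against -1.79). Col1a2 was -1.78, -0.50 and -1.66 on the Acet arrays, against 1.10, 1.37 and 0.90 on the Injured 4 hr arrays (-2.44 ± 0.48, SE, n = 3 each). Mgp was -1.54, 0.01 and -1.16, against 1.43, 1.94 and 0.64 in Injured 4 hr (-2.23 ± 0.51). Timp1 was -2.54, -1.02 and -1.80, against 0.60, 0.58 and -0.01 in Injured 4 hr (-2.18 ± 0.46). These 3 lay lower on every Acet array, full or sparse, and stayed below 0 under each scaling. As deposited they came to -0.51 for Col1a2, -0.30 for Mgp and -0.25 for Timp1. Col1a1 probe 1 was -1.30, -1.17 and -1.62, against 0.16, 0.40 and 0.03 in Injured 4 hr (-1.56 ± 0.33), and turned to 0.37 as deposited. All 3 Acet arrays lay below all 3 PBS culture arrays before that change of scale.

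The other members also had changes below 0 in Acet in centred ratios. S100a6 was -1.74, 0.59 and -1.005, against 1.33, 1.19 and 0.78 in Injured 4 hr (-1.82 ± 0.60). Dcn was -0.75, 0.74 and -0.19, against 1.51, 1.80 and 1.36 (-1.62 ± 0.50). In both genes, as in Vim, Col1a2, Mgp and Timp1, Acet replicate 2 was the highest array of the group. Vim changed by -1.40 ± 0.61, Ugdh by -1.23 ± 0.37 and Col1a1 probe 2 by -0.49 ± 0.45. As deposited, 6 of the 9 probes lay above 0, among a median shift of 1.64 over all probes. In centred ratios 4 of 9 fell past the threshold (Col1a1 probe 1, Col1a2, Mgp and Timp1), where 1.2% of 4734 probes fell, and 8 of 9 did not overlap with Injured 4 hr, where 26.8% of probes were apart. The members are taken as chosen on this contrast, so nothing is read from either count. Leaving out any 1 Injured 4 hr array, or Acet replicate 1 or 3, left 0 of the 9 past the threshold, with each change still below 0 for the 4 probes. CKIN, MP and Acet share the Injured 4 hr arrays as their comparator.

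NS398 cultures carried the highest mean of any group for 7 of the 9 probes in centred ratios, all but Col1a1 probe 2 and Col1a2, which were highest in Uninjured. Only for Mgp and Ugdh did the NS398 arrays stand apart from the group next in mean. The ranking also sets ratios to the DMSO pool beside ratios to other references. Vim was 2.01, 3.55 and 3.89 on the NS398 arrays, a mean change of 3.15 ± 0.43 against the DMSO pool (SE, n = 3). Dcn was 2.24, 3.24 and 3.50 (2.99 ± 0.35), Mgp 2.34, 3.07 and 3.15 (2.85 ± 0.36) and S100a6 2.24, 3.04 and 2.72 (2.66 ± 0.43). Within their arrays Dcn stood at percentiles 99.4 to 99.9 and Mgp at 99.5 to 99.8. The enzyme Ugdh was 1.80, 1.89 and 2.60 (2.10 ± 0.27). The collagen chains followed at smaller size, with Col1a2 at 0.88, 1.67 and 2.65 (1.73 ± 0.34) and Col1a1 probe 1 at 1.18, 1.56 and 1.41 (1.38 ± 0.24). Col1a1 probe 2 was 0.55 and 1.08 on the 2 arrays that measured it (0.82 ± 0.39), and Timp1 0.12, 1.34 and 1.49 (0.99 ± 0.33). The sparse array, NS398 replicate 1, gave the lowest value of the group for each of the 8 probes it measured.

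Of the 9 probes, 8 rose past the threshold against the DMSO pool, all but Col1a1 probe 2, where 10.7% of 4486 probes rose. The members' median change was 2.10, against -0.02 over all probes. Since the genes are taken as chosen on this contrast, the count is a description. As deposited, Vim averaged 2.26 ± 0.39, Dcn 2.10 ± 0.23, Mgp 1.96 ± 0.38, S100a6 1.77 ± 0.59 and Ugdh 1.20 ± 0.39 (SD, n = 3 each), although the deposited median of all probes was below 0 on each NS398 array. Of the 26 measured NS398 values of the members, 21 were above 0 as deposited and 26 after centring. On the deposited scale Timp1 averaged 0.09, Col1a1 probe 1 0.49 and Col1a1 probe 2 -0.45. Set against the Injured 4 hr arrays, in an alternative added after seeing the data, the changes were 0.60 to 1.57 and only Ugdh passed the threshold. The reference pools of the 2 groups differ, so that setting mixes DMSO with PBS.

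**Figure D2:**
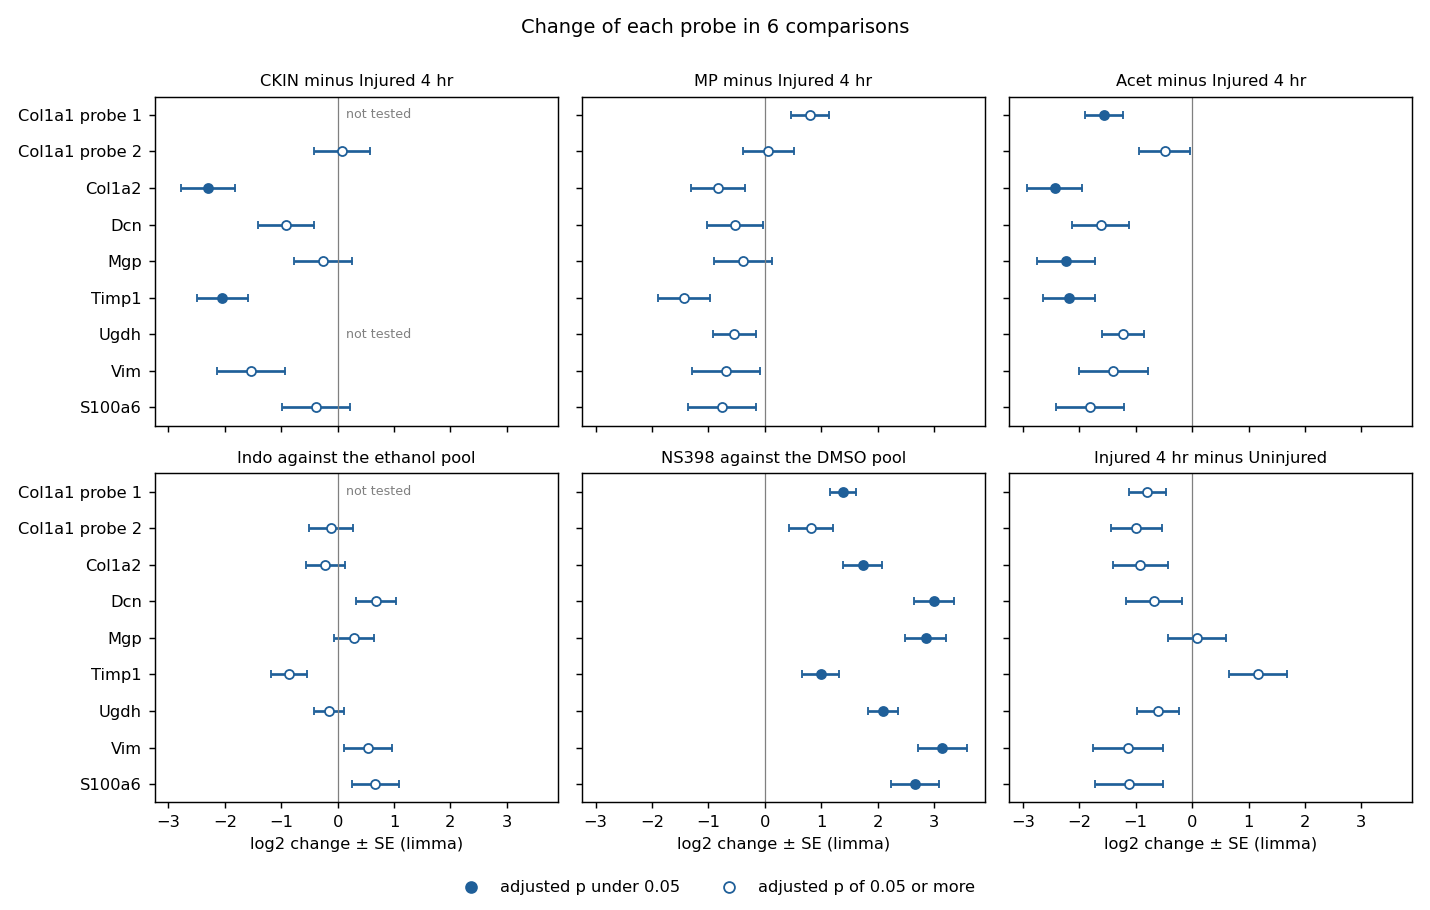
Change of each probe in 6 comparisons, as the log2 difference with its standard error from limma, with filled points where the adjusted p was under 0.05. NS398 lies to the right of 0 for 9 of 9 probes and Acet to the left for 9 of 9 (6 of these turn above 0 as deposited), while Timp1 is the probe farthest right in Injured 4 hr minus Uninjured at 1.17.

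The rank of each probe within its own array does not depend on centring. The median percentile of the members was 37.1 to 68.5 on the CKIN arrays, 44.6 to 82.9 on the MP arrays, 9.84 to 36.1 on the Acet arrays, 56.5 to 79.5 on the Indo arrays and 98.8 to 99.1 on the NS398 arrays. It was 76.0 to 86.5 in Injured 4 hr and 70.5 to 79.6 in Uninjured. No array of another group reached the NS398 range, and no array outside Acet went below 37.1. Timp1 stood at percentiles 3.41 to 5.57 in CKIN and at 21.8 and 23.3 in Uninjured, where Vim stood at 92.7 to 96.2.

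**Figure D3:**
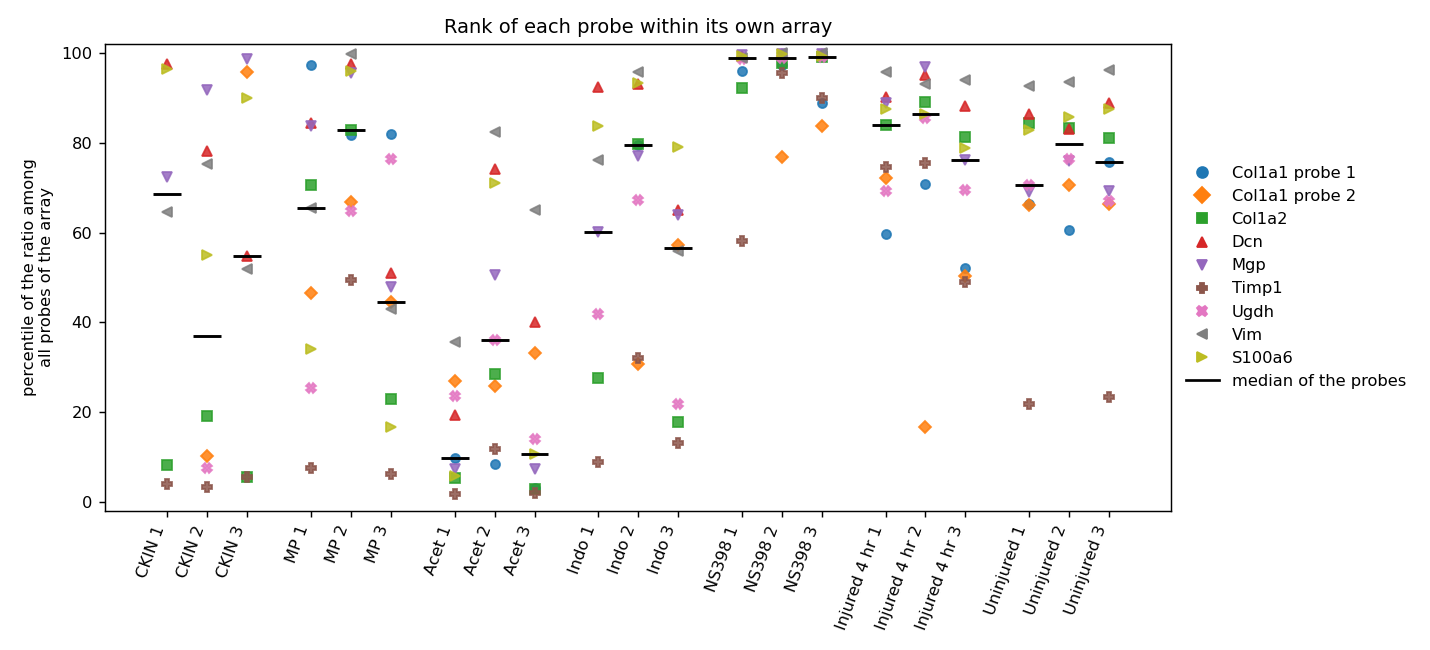
Percentile of each probe's ratio among all probes of its array, by array, with a bar at the median of the members. The 3 NS398 medians lie at 98.8 to 99.1, the 3 Acet medians at 9.84 to 36.1, and the medians of all other arrays in between.

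Direct differences between treatments were taken for the arrays on PBS reference, and NS398 minus Indo was added after seeing the data. These 4 comparisons involve groups taken as used to choose the members, so intervals are given as a description and no p. CKIN minus MP had 0 of 7 probes past the threshold in limma, with 0.0% of 3633 probes and, at an unadjusted p under 0.05, 1 of 7 and 15.2% of all. Col1a2 differed by -1.46 (95% interval -2.45 to -0.47), while Mgp differed by 0.14 (-0.91 to 1.19), an interval that leaves room for a change in either direction. CKIN minus Acet likewise gave 0 of 7, with 0.16% of 3750 probes and 2 of 7 unadjusted (17.4% of all). There Mgp differed by 1.98 (0.92 to 3.03) and S100a6 by 1.44 (0.20 to 2.67), whereas Col1a2 differed by 0.14 (-0.85 to 1.14) and Timp1 by 0.13 (-0.82 to 1.09). MP minus Acet gave 1 of 9, Col1a1 probe 1 at 2.36 (1.66 to 3.06), the highest of all probes and the single one past the threshold (0.0228% of 4379). It was lost without Acet replicate 3, at 2.23. NS398 minus Indo gave 3 of 8 higher past the threshold, Dcn at 2.31 (1.28 to 3.33), Mgp at 2.56 (1.51 to 3.62) and Ugdh at 2.24 (1.46 to 3.02), where 0.407% of 3681 probes were. The members are taken as chosen on NS398, so this count and its intervals are a description and nothing is read from them. As deposited 0 of the 3 calls were left, and with the array set as a term or only the groups compared 1 probe was called. Its 8 tested probes lay above 0, and 1 of them, Col1a1 probe 2, turned to -0.14 as deposited.

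The 2 Col1a1 probes did not give the same picture. In Acet minus Injured 4 hr probe 1 changed by -1.56 and probe 2 by -0.49, and in MP minus Acet by 2.36 and 0.55. Their Pearson correlation over the 15 arrays that measured both was 0.66. Probe 1 had a value on 16 of 21 arrays and probe 2 on 18. On the CKIN arrays, where probe 1 had no value, probe 2 read -1.08 and 1.29. A reading of Col1a1 thus depends on the probe, and Col1a2 is the collagen chain measured on every array.

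**Figure D4:**
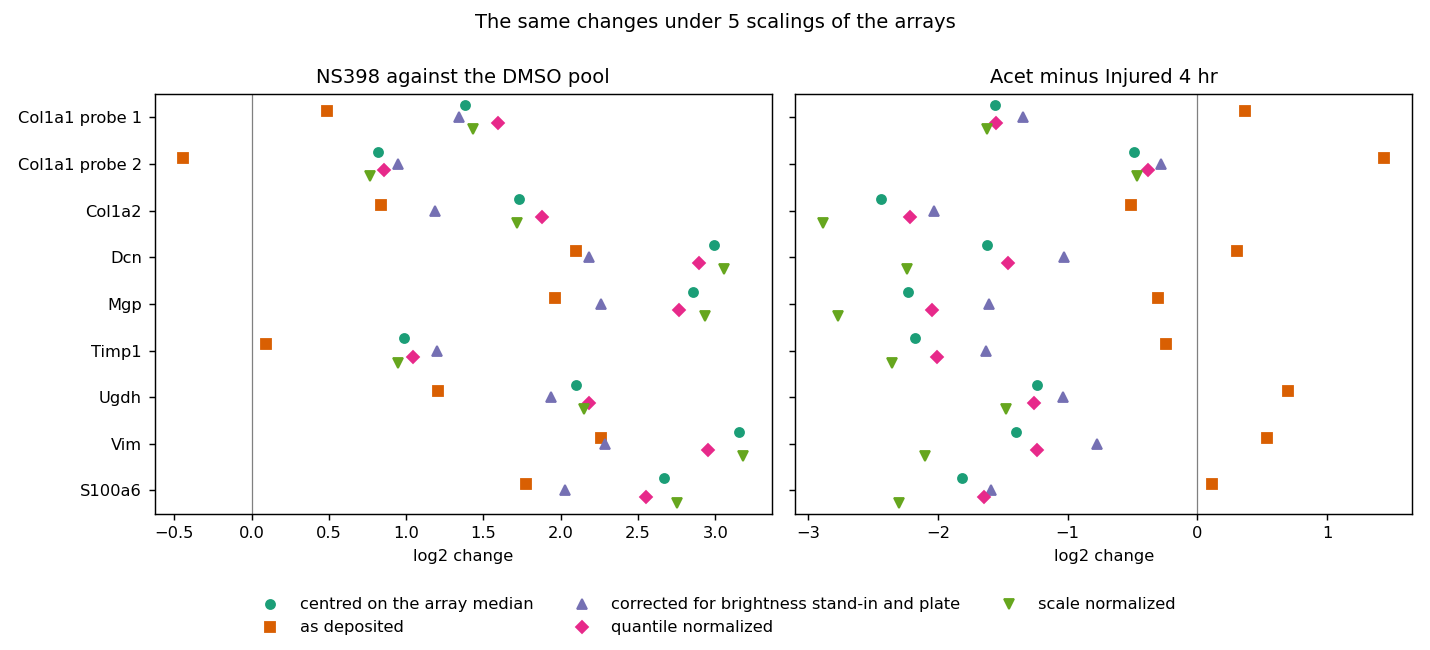
Change of each probe in NS398 against the DMSO pool and in Acet minus Injured 4 hr under 5 scalings of the arrays, on a log2 axis. All probes but Col1a1 probe 2 (-0.45 as deposited) stay above 0 in NS398, while in Acet 6 of 9 lie above 0 as deposited and Col1a2, Mgp and Timp1 stay below it.

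Over the arrays, the members varied together. Among 26 pairs of member probes that shared at least 18 arrays, Pearson's r had a median of 0.82 and ran from 0.55 to 0.94. The same pairs had a median of 0.79 in ratios corrected for brightness and plate, and all pairs of probes had a median of 0.17. Dcn gave 0.94 with Vim and also with S100a6, over 21 arrays. Col1a1 probe 2 was the loosest, at 0.55 with Col1a2 over 18 arrays. The arrays share groups, reference pools and array sets. The genes were chosen by their ratios on these arrays, so these values are a description and carry no test.

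The probes most like the members lay partly outside the set. Pmp22, a myelin protein of Schwann cells that fibroblasts also express, was nearest to Col1a2, Dcn, Vim and S100a6 (r = 0.92, 0.96, 0.95 and 0.94 over 19 arrays each). Its means were 3.22 in NS398, -0.68 in Acet, 1.75 in Injured 4 hr and 3.20 in Uninjured. Igfbp2, an insulin-like growth factor binding protein made in the meninges, followed Pmp22 and a member for Col1a2 (0.91) and S100a6 (0.92), over 20 arrays each. Its means were 2.33 in NS398, -1.14 in Acet, 1.40 in Injured 4 hr and 2.31 in Uninjured. Both followed the order NS398 and Uninjured, then Injured 4 hr, then Acet, as Col1a2, Dcn, Vim and S100a6 did. Plat, the tissue plasminogen activator, was among the 3 nearest to Vim (0.93, 21 arrays). Timp1 was nearest to Ocm (0.90), which encodes the calcium-binding oncomodulin, to the haem-degrading Hmox1 (0.88) and to Arrb2 (0.85), over 20 arrays each. Mgp was nearest to a probe annotated Rpl-1 (0.93) and to the stress gene Nupr1 (0.89), over 21 arrays. Ugdh was nearest to Dcn (0.86, 19 arrays), and after it to Phlda1 (0.85, 19 arrays) and Arrb2 (0.85, 18 arrays). For Col1a1 probe 2 the nearest were Dkk3 (0.80), the collagen prolyl hydroxylase subunit P4ha1 (0.79) and the chaperone Hspa4 (0.73), over 18 arrays.

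Other genes of the matrix and of mesenchymal cells, with the members left out, are counted as lists in centred ratios. Over all probes of Injured 4 hr minus Uninjured 39 rose and 651 fell in centred ratios, against 2416 and 14 as deposited, 14 and 6 after quantile and 29 and 4 after scale normalization, so the directions of the lists below are those of centred ratios. The same counts were 55 and 693 for CKIN minus Injured 4 hr (2231 and 1 as deposited), 5 and 57 for Acet minus Injured 4 hr (3371 and 0) and 479 and 507 for NS398 (53 and 1924). In Injured 4 hr minus Uninjured, 0 of 12 other collagen probes passed, with a list median of 0.27 against -0.04 over all probes (members -0.79). Of 43 probes of matrix proteoglycans and glycoproteins 0 rose and 6 fell (median -0.04), among them brevican (Bcan) at -1.94 ± 0.36 and -1.93 ± 0.41 on 2 probes, agrin (Agrn) at -2.10 ± 0.35 and the syndecan Sdc4 at -1.48 ± 0.34. Over all probes 13.5% fell, a share close to that of this list and of the next 2. Of 27 probes of matrix enzymes and inhibitors 1 rose and 4 fell (median -0.11). The macrophage elastase Mmp12 rose by 1.41 ± 0.43, while the protease nexin Serpine2 changed by -2.68 ± 0.39 and -2.54 ± 0.43 on 2 probes and Timp2 by -2.13 ± 0.38. Timp1 and Timp2 had opposite signs in centred ratios, though Timp1 did not pass. Of 28 probes of mesenchymal cytoskeleton, S100, annexin and galectin genes 0 rose and 4 fell (median -0.54). They were Anxa2 at -1.89 ± 0.40, the calponin Cnn3 at -1.56 ± 0.43, the tropomyosin Tpm3 at -1.49 ± 0.39 and S100a4 at -0.99 ± 0.32 on probe 31A12. Of 12 probes of glycosaminoglycan synthesis 0 passed (median -0.24), and of 13 probes of meningeal and fibroblast markers 0 passed (median -0.34).

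Markers of other cells moved in the same comparison. Of 21 neuronal probes 14 fell (median -1.64) and of 13 astrocyte probes 7 fell (median -1.55), with 0 rising in both lists. After quantile normalization 3 neuronal and 0 astrocyte probes fell (medians -0.54 and -0.49), after scale normalization 0 of either (medians -0.02 and 0.02), and as deposited 5 and 1 (medians -0.11 and -0.02). The astrocyte list's median lay between 0.59 and 0.75 on the Injured 4 hr arrays, against 2.62 to 3.08 on the Uninjured arrays. Endothelial markers had 0 of 13 pass (median 0.29) and blood markers 0 of 4 (median 0.27). The part of these cell types in the members' values was not tested.

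In CKIN minus Injured 4 hr, where the median of all probes was -0.38, 10 of 24 cytoskeleton, S100 and annexin probes fell and 0 rose (median -0.83). They included S100a1 at -2.26 ± 0.43, Cnn3 at -1.79 ± 0.49 (2 CKIN arrays) and the actinin Actn1 at -1.74 ± 0.52. S100a4 changed by -1.75 ± 0.47 on probe 52B03, which is not the probe named in the injury comparison. Of 21 matrix enzyme and inhibitor probes 1 rose and 4 fell (median -0.37). The procollagen proteinase Bmp1 rose by 1.45 ± 0.45 (2 CKIN arrays). Cystatin C (Cst3) changed by -1.76 ± 0.54, the lysyl hydroxylase Plod1 by -1.25 ± 0.32 and Timp2 by -1.17 ± 0.38. Of 26 matrix proteoglycan and glycoprotein probes 3 fell, each measured on 2 CKIN arrays. Perlecan (Hspg2) changed by -2.08 ± 0.50 on probe 25C05 (-0.67 ± 0.37 on probe 25B12). Ecm1 changed by -1.91 ± 0.65 and fibrillin 1 (Fbn1) by -1.63 ± 0.51. Other collagens had 0 of 6 past the threshold. Over all probes 18.5% fell. Myelin markers had 7 of 11 fall (median -1.69) and the astrocyte list had a median of -1.02. These lists meet the same sparse arrays as the members. With the array set as a term 6 of 3736 probes were called (4 lower), the median of all probes was -0.09, and 0 probes of the lists named here passed. The brightness and plate correction left 28 probes called (17 lower) and again 0 in these lists. The part of the myelin and astrocyte markers in the members' values was not tested.

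In NS398 the wider lists rose only in part. Of 27 cytoskeleton, S100, annexin and galectin probes 10 rose and 0 fell (median 0.34, against -0.02 over all probes and 2.10 for the members). The largest of them, named after their values were seen, were the actin-binding peptide gene Tmsb4x at 1.70 ± 0.43 and Cnn3 at 1.57 ± 0.31. Of 22 matrix enzyme and inhibitor probes 5 rose and 1 fell (median 0.25). Those chosen after their values were seen are Plat at 2.08 ± 0.36, Cst3 at 1.37 ± 0.38, the collagen chaperone Serpinh1 at 1.13 ± 0.27, P4ha1 at 1.08 ± 0.27 and Adamts1 at 0.93 ± 0.24, with the urokinase gene Plau at -2.10 ± 0.25. Other collagens had 0 of 10 rise and 1 fall (median -0.20), Col11a1 at -1.16 ± 0.35 (2 NS398 arrays). Of 38 matrix proteoglycan and glycoprotein probes 2 rose and 3 fell (median -0.21). Sdc4 rose by 1.23 ± 0.24 and vitronectin (Vtn) by 1.16 ± 0.34 (2 NS398 arrays). Those that fell were Cspg5 at -1.44 ± 0.29, Hspg2 at -1.04 ± 0.26 on probe 25B12 (-0.01 ± 0.32 on 25C05) and tenascin C (Tnc) at -0.87 ± 0.31. These matrix genes too were chosen after their values were seen, as were the marker genes named next. Meningeal and fibroblast markers had 3 of 12 rise (median 0.44), Ptgds at 2.58 ± 0.54, Igfbp2 at 2.33 ± 0.38 and Crabp2 at 0.69 ± 0.22. Schwann cell markers had 3 of 7 rise (median 0.13), Pmp22 at 3.22 ± 0.52, Prx at 2.00 ± 0.32 and Sox10 at 1.28 ± 0.37. Pericyte and smooth muscle markers had 0 of 10 pass (median -0.21). Myelin markers had 3 of 11 rise (median 0.61), Mbp, Mog and Sox10 again, blood markers 2 of 3 (median 0.66), Hbb and S100a9, and astrocyte markers 2 of 13 (median 0.17), both probes of S100b. The summed centred ratio of the meningeal and fibroblast list was 5.33 to 9.63 on the NS398 arrays, against 2.84 to 3.74 in Injured 4 hr and 4.58 to 8.75 in Uninjured. The sums add 10 to 13 measured probes in NS398 and 13 in the other groups. The list's medians by array were 0.10 to 0.64 in NS398, -0.02 to 0.04 in Injured 4 hr and 0.07 to 0.57 in Uninjured. The part of these cell types in the members' values was not tested.

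In Acet minus Injured 4 hr the wider lists held few called probes. Other collagens (12 probes), proteoglycans and glycoproteins (43), glycosaminoglycan synthesis (11) and cytoskeleton, S100 and annexin genes (28) had 0 past the threshold in limma. The medians were 0.06, -0.32, -0.40 and -0.36, against -0.21 over all probes and -1.62 for the members. Of 27 matrix enzyme and inhibitor probes 1 fell, Plau at -1.45 ± 0.35, and of 13 meningeal and fibroblast probes 1 fell, Igfbp2 at -2.55 ± 0.54. The summed ratio of the meningeal and fibroblast list was -7.39 to -1.55 on the Acet arrays (11 to 13 probes), against 2.84 to 3.74 in Injured 4 hr (13 probes). The list's medians by array lay closer, at -0.36 to -0.04 in Acet and -0.02 to 0.04 in Injured 4 hr. In MP minus Injured 4 hr 1 probe of these matrix and mesenchymal lists passed, S100a4 on its 31A12 probe at -1.38 ± 0.36 (2 MP arrays).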

How the data were processed

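RNA was measured on 21 2-colour arrays, 3 in each of 7 groups named by the labels. The deposited values are log2 ratios, as the authors' table holds them, with a base inferred from recurring values that equal base-2 logarithms of simple ratios. Dyes, scanner, background correction and normalization: not given in the sources used here. In all, the table holds 5376 probes, of which 4962 had a value; 52 Gapdh spots were averaged, which left 4911. Symbols came from the platform annotation, updated by gene identifier for 4367 of 4415 probes with 1 symbol; 545 were unnamed and 2 had several.

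Each array was centred on its median. All 21 arrays entered 1 limma model (limma 3.58.1, R 4.3.3) with 1 coefficient per group, and Benjamini-Hochberg adjustment ran over all probes tested. A probe needed values on 2 or more arrays in every group compared and was called at an adjusted 2-sided p of 0.05. The fit was tested on simulated data. Array number limits the precision. Ratios corrected for brightness and plate had a loess curve (span 0.4) on the mean Injured 4 hr ratio, a stand-in for brightness, subtracted and plates of at least 20 probes centred. This flattened the Injured 4 hr means by construction (Timp1 at -0.01), so comparisons with that group are not independent of the correction. Named genes are all members, up to 4 passing probes per list in the injury and CKIN comparisons, and the 3 most correlated probes per member measured on at least 18 arrays. Members and lists were chosen with earlier results of these data known. Other comparators, scalings, filters, fits and left-out arrays were tried as alternatives.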

Additional observations from a re-analysis of the deposited data

How the results depend on the processing

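Of 82 member changes tested, 18 were called. With a replicate block or with robust empirical Bayes 18 of these remained called, after scale or quantile normalization 17, with the array set as a term or after the brightness and plate correction 14, in a fit of only the groups compared 12, and in deposited ratios 6. The deposited scale reversed 1 called change, Col1a1 probe 1 in Acet minus Injured 4 hr, to 0.37. The cause was not tested. All called changes lie in comparisons that involve NS398, Acet or CKIN, the treatments taken as used to choose the members. The calls that remain under each setting are therefore a description and no separate support.

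Counts of members called moved as follows. As deposited they were 2 for Injured 4 hr minus Uninjured, 8 for MP and 1 for Acet minus Injured 4 hr, 6 for NS398, 1 for Indo, 0 for MP minus Acet and 0 for NS398 minus Indo. There 3170 of 4391 probes were called for MP and 3371 of 4734 for Acet minus Injured 4 hr, all higher, while most called probes were lower in centred ratios. For Injured 4 hr minus Uninjured 2430 of 4822 were called, for NS398 1977 of 4486 and for Indo 289 of 3803. For NS398 minus Indo it was 15 of 3681 and for MP minus Acet 0 of 4379. Scale normalization gave 4 for CKIN, 1 for MP and 8 for Acet minus Injured 4 hr, and 1 for Indo. Over all probes it called, in that order, 1228 of 3736, 645 of 4391, 507 of 4734 and 741 of 3803. Quantile normalization gave 2 for Indo and 1 for CKIN minus Acet. The brightness and plate correction gave 1 for Injured 4 hr minus Uninjured, 0 for CKIN and 2 for Acet minus Injured 4 hr, 2 for CKIN minus Acet and 5 for NS398 minus Indo. All probes called were, in that order, 346 of 4822, 28 of 3736, 36 of 4734, 17 of 3732 and 37 of 3664. The array set as a term gave 2 for Injured 4 hr minus Uninjured, 0 for CKIN, 4 for Indo, 2 for CKIN minus Acet, 3 for MP minus Acet and 1 for NS398 minus Indo. All probes called were, in that order, 988 of 4822, 6 of 3736, 954 of 3803, 8 of 3750, 8 of 4379 and 8 of 3681. Fits of only the groups compared gave 7 for Injured 4 hr minus Uninjured, 5 for NS398, 0 for MP minus Acet and 1 for NS398 minus Indo. In those fits 1824 of 4822 probes were called for Injured 4 hr minus Uninjured (690 with all groups) and 125 of 4486 for NS398 (986 with all groups). For MP minus Acet 0 of 4379 and for NS398 minus Indo 6 of 3681 were called. The replicate block gave 1 for Indo (523 of 3803 probes) and 6 for NS398 minus Indo (23 of 3681). Requiring values on all 3 arrays gave 6 for NS398 minus Indo (23 of 2589 probes). Comparators added or exchanged gave 3 for MP against its reference pool (1373 of 4428 probes) and 1 for NS398 against the Injured 4 hr arrays (153 of 4456 probes).

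Leaving out 1 array gave 0 to 3 calls for MP and 0 to 6 for Acet minus Injured 4 hr, 7 to 8 for NS398, 0 to 1 for CKIN minus Acet, 0 to 1 for MP minus Acet and 1 to 6 for NS398 minus Indo. The 3 came without MP replicate 2 and the 6 without Acet replicate 2, and Acet lost all 4 calls without any 1 Injured 4 hr array or Acet replicate 1 or 3. The fit without MP replicate 2 called 16.4% of 3638 probes. Shares for the other left-out fits are not given, so nothing is read from these counts. For the replicate block, deviations of same-numbered arrays correlated at -0.23 to 0.60, in 0 comparisons were all above 0.1, and arrays were closest to their own number in 7 of 24 cases, so the numbers were not taken as pairs. Missing spots limit CKIN and Indo most.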
